A study of Rattus norvegicus with 12 samples.

Results

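Voltage-gated sodium channels carry the rising phase of the action potential, and their subunits were followed here through nerve injury in the rat dorsal root ganglion, where the cell bodies of sensory neurons sit next to the spinal cord. The members were 9 genes, chosen by name and not by a rule on their values, although earlier results of these data were known. They were the alpha subunit genes Scn10a, Scn11a, Scn9a, Scn1a, Scn3a, Scn8a and Scn7a and the beta subunit genes Scn2b and Scn3b. Each was measured by 1 probe set, so 9 of the 15866 probe sets tested belonged to them. RNA came from L4/L5 ganglia of adult male Sprague Dawley rats weighing 180 to 300 g, from sub-lines named High Pain (HP) and Low Pain (LP). In one arm the nerves of these segments were tied off (spinal nerve ligation, SNL) and the ganglia were taken 3 days later, while the other arm had sham surgery that left the nerve undamaged. The 12 Affymetrix arrays formed 4 groups of 3, sham and SNL in HP and sham and SNL in LP. The labels name no transgene and no drug, and give no day after surgery for the sham arrays. They do not say whether an array holds 1 animal or a pool, or that the replicates came from different animals, and the p-values therefore cover the spread among these arrays, part of which may be technical.

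The alpha subunit forms the pore and holds the voltage sensors, and beta subunits are single-pass membrane proteins that modulate gating and bring channels to the surface. Small pain-sensing neurons (nociceptors) carry the tetrodotoxin-resistant channels encoded by Scn10a and Scn11a, and Scn9a encodes a channel that amplifies small depolarizations in peripheral sensory and sympathetic neurons. Scn1a and Scn8a encode channels of faster conducting and myelinated fibres, Scn3a is known mainly from the embryonic nervous system, and Scn7a encodes a sodium-level sensor that lacks ordinary voltage gating and is found in glia as well as neurons. Loss of the nociceptor-type channels and return of the embryonic channel after axon injury are well-known features of this tissue.

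The promoter windows below are shown because their genes moved in opposite directions after ligation, Scn11a and Scn9a down and Scn3a up. Each is the 250 bases before the RefSeq start site in the rat assembly GRCr8, written 5′ to 3′ on the gene's own strand (minus for each), and capitals mark every match to an E-box (CANNTG) or to an AP-1 site (TGANTCA). The windows are chr8:128444719-128444968 for Scn11a, chr3:71701378-71701627 for Scn9a and chr3:70666199-70666448 for Scn3a.
Scn11a: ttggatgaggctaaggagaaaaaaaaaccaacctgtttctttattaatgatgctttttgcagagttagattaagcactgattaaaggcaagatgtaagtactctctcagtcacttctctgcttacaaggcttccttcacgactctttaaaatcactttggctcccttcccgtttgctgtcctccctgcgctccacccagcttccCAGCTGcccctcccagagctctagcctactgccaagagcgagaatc
Scn9a: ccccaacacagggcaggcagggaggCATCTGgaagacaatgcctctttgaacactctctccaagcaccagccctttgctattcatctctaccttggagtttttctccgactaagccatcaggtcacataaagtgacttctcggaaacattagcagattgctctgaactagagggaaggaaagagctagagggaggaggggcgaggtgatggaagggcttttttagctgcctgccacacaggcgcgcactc
Scn3a: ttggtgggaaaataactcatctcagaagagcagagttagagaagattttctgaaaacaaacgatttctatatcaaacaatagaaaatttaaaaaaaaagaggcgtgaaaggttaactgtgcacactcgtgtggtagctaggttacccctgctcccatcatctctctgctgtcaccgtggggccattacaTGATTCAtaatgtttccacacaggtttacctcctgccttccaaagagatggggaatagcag
The AP-1 letters in the Scn3a window stand at position -61 from the start site, and 6.34% of all 33469 RefSeq windows of this length held such a match on either strand. None of the other 6 member windows at hand held one. The E-box letters were common, in 65.5% of all windows, and were found once each in the windows of Scn10a, Scn11a, Scn9a and Scn7a and 3 times in that of Scn2b, with no match in those of Scn3a and Scn8a. No member window held the cyclic AMP response element TGACGTCA, which 1.59% of all windows held, or TATAAA, which 12.9% held. The Scn8a window stood apart in composition, with 86.0% G and C, above 99.9% of all windows, and 53 CpG pairs against a median of 5. Other motifs were searched too. Runx letters, in 14.5% of all windows, were found once each in the windows of Scn3a and Scn2b. GC box letters (30.5%) were found 6 times in the Scn8a window and once in that of Scn7a. Those of a C-rich box (26.1%) were found 2 times in the Scn10a window and once each in those of Scn11a, Scn7a and Scn2b. With several motifs searched per window, a single match carries little weight. These matches describe letters and were not tested as sites. The windows of Scn10a, Scn8a and Scn7a overlap the annotated span of their own gene and are not printed, and Scn1a and Scn3b have no window here.

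Signals are on a linear scale, and log2 differences are of the signal plus 1 with their standard errors, which understates the change of dim probe sets. The median signal per array lay between 278.4 and 313.2. A call is a Benjamini-Hochberg adjusted p under 0.05 by limma over all 15866 probe sets. The ligation itself was visible in all 8 genes listed as known risers after axon injury, each called higher in both lines, with log2 differences from 0.755 to 2.81 in HP and from 0.93 to 2.96 in LP. The 3′ to 5′ signal ratio of beta-actin, a sign of RNA integrity, was 1.48 to 1.85 in HP sham against 1.12 to 1.34 in HP SNL, and 0.99 to 1.88 in LP sham against 1.11 to 1.13 in LP SNL. A fit with this ratio as a covariate was one of the alternatives. In HP the ratio did not overlap between sham and SNL, so that fit cannot cleanly separate RNA integrity from ligation there.

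The nociceptor-type channels fell after ligation in both lines. In bulk tissue, fewer neurons of a type and less RNA per neuron cannot be told apart. Scn10a, the tetrodotoxin-resistant channel that carries most of the inward current of nociceptor action potentials, had signals of 3007.4, 2770.1 and 2677.1 after sham surgery in HP, against 1132.0, 1135.3 and 1153.4 after ligation. In LP it had 2530.5, 2754.4 and 2847.3 after sham and 733.1, 740.2 and 769.6 after SNL. All SNL arrays lay below all sham arrays, and the ligated replicates of each line lay close together, with an SD of 11.5 in HP and 19.4 in LP. Scn10a changed by -1.30 ± 0.09 on the log2 scale in HP (2.47-fold lower, 95% interval 2.16 to 2.82; adjusted p = 7.07e-05) and by -1.86 ± 0.09 in LP (3.62-fold lower, 3.17 to 4.13; adjusted p = 9.2e-06).

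**Figure D1:**
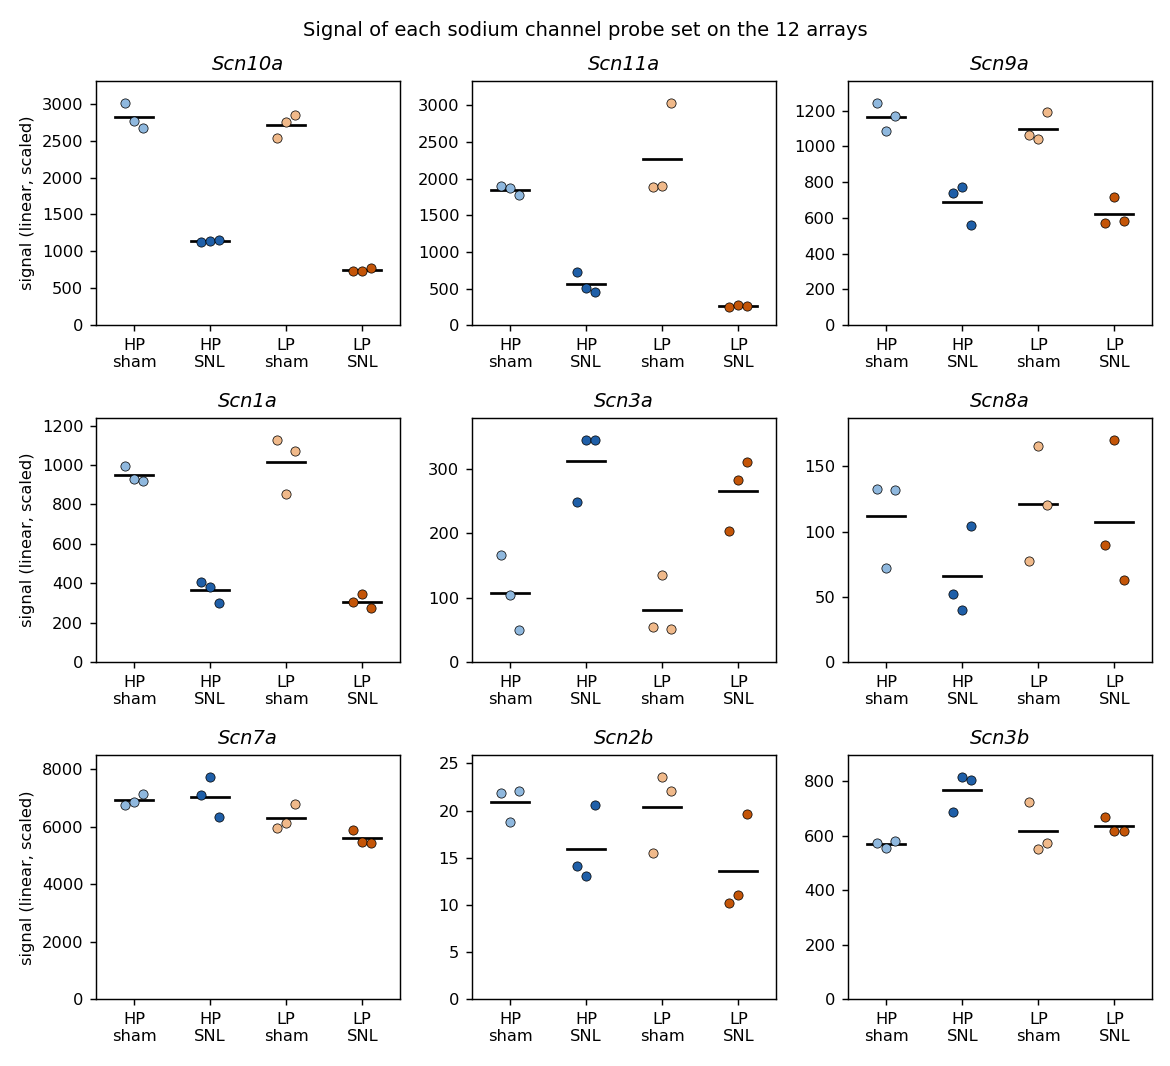
Signal of each of the 9 sodium channel probe sets (vertical axes, linear, starting at 0 and scaled per gene) on the 12 arrays, by group, with 1 point per array in the order of replicates 1 to 3 and a bar at the group mean. Scn10a, Scn11a, Scn9a and Scn1a drop after SNL in both lines with no overlap between groups, Scn3a rises, and Scn7a stays between 5439.9 and 7703.8 on all arrays.

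Scn11a, the channel behind the persistent tetrodotoxin-resistant current that sets resting excitability, had the largest fall of the 9 genes. Its signals were 1894.2, 1873.8 and 1776.2 after sham surgery in HP, against 731.5, 502.2 and 458.9 after ligation. In LP they were 1887.4, 1898.7 and 3029.9 after sham and 253.4, 268.9 and 259.6 after SNL. The LP SNL arrays were the lowest of all 12, and LP sham replicate 3 stood above every other array. Scn11a changed by -1.74 ± 0.21 in HP (3.34-fold lower, 2.42 to 4.61; adjusted p = 0.000979) and by -3.08 ± 0.21 in LP (8.47-fold lower, 6.14 to 11.7; adjusted p = 4.14e-05). In LP this was the 8th lowest log2 difference of the 15866 probe sets, and in HP it was number 122 from the lowest. Without LP sham replicate 3 the LP difference was -2.86.

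Scn9a, whose channel amplifies subthreshold depolarizations and whose loss in people removes pain, fell less than the other nociceptor-type genes. Its signals were 1241.8, 1088.8 and 1170.1 in HP sham, 740.3, 771.5 and 562.4 in HP SNL, 1066.1, 1040.8 and 1191.1 in LP sham and 571.1, 718.9 and 580.5 in LP SNL. Sham and SNL arrays did not overlap in either line. Scn9a changed by -0.77 ± 0.14 in HP (1.7-fold lower, 1.36 to 2.12; adjusted p = 0.00843) and by -0.82 ± 0.14 in LP (1.77-fold lower, 1.42 to 2.21; adjusted p = 0.00515). With the actin ratio as a covariate the HP difference was -0.74 and missed the threshold (adjusted p = 0.0548).

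Among the other alpha subunits, Scn1a fell as the nociceptor-type genes did. Scn1a, a channel of medium and large sensory neurons, had signals of 996.5, 930.0 and 919.2 after sham surgery in HP, against 409.4, 382.3 and 303.0 after ligation. In LP it had 1125.1, 855.4 and 1072.5 after sham and 304.4, 343.9 and 275.4 after SNL. The groups did not overlap in either line. Scn1a changed by -1.39 ± 0.15 in HP (2.61-fold lower, 2.08 to 3.29; adjusted p = 0.000621) and by -1.72 ± 0.15 in LP (3.29-fold lower, 2.61 to 4.14; adjusted p = 0.000164).

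Scn3a, the embryonic channel with rapid recovery from inactivation, was the alpha subunit gene that rose. Its signals were 166.8, 104.6 and 50.7 after sham surgery in HP, against 248.8, 344.1 and 344.2 after ligation. In LP they were 54.6, 134.9 and 52.0 after sham and 203.5, 282.3 and 310.7 after SNL. All SNL arrays lay above all sham arrays, while the sham arrays of HP alone ranged from 50.7 to 166.8. Scn3a rose by 1.67 ± 0.45 in HP (3.19-fold higher, 1.58 to 6.44; adjusted p = 0.0432) and by 1.83 ± 0.45 in LP (3.56-fold higher, 1.77 to 7.18; adjusted p = 0.0268). These calls were narrow. With the actin ratio as a covariate the adjusted p was 0.167 in HP and 0.0559 in LP, with array weights 0.0678 and 0.0737, and with only the arrays compared 0.0854 and 0.061. The replicate block (0.0623) and quantile normalization (0.0532) ended the HP call as well. Leaving out single arrays ended the HP call with an adjusted p of 0.0914 (sham array 2 of HP), 0.127 (sham array 3 of HP), 0.0663, 0.118 or 0.12 (ligated arrays 1, 2 or 3 of HP), or 0.0567, 0.0608 or 0.06 (ligated arrays 1, 2 or 3 of LP), at log2 differences of 1.22 to 1.83. The LP call ended at 0.0897 or 0.0812 (sham arrays 1 or 3 of LP) and at 0.0755 or 0.0919 (ligated arrays 2 or 3 of LP), at differences of 1.59 to 1.78.

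Scn8a and Scn7a were not called. Scn8a, the main channel of nodes of Ranvier, was dim, with signals of 132.2, 71.8 and 131.6 in HP sham, 52.3, 40.1 and 104.5 in HP SNL, 77.8, 165.7 and 120.3 in LP sham and 89.8, 169.7 and 62.9 in LP SNL. The groups overlapped in both lines. Its log2 differences were -0.83 ± 0.46 in HP (95% interval -1.86 to 0.21; adjusted p = 0.322) and -0.23 ± 0.46 in LP (-1.26 to 0.80; adjusted p = 0.83). As folds, these intervals ran from 3.63-fold lower to 1.16-fold higher in HP and from 2.40-fold lower to 1.75-fold higher in LP. Scn7a was bright, above the 99th percentile of probe sets on every array, with signals of 6745.4, 6859.0 and 7127.2 after sham surgery in HP, against 7103.0, 7703.8 and 6323.7 after ligation. In LP it had 5960.9, 6122.2 and 6787.3 after sham and 5888.6, 5479.5 and 5439.9 after SNL, where the groups narrowly did not overlap. Its log2 differences were 0.02 ± 0.10 in HP (-0.20 to 0.25; adjusted p = 0.925) and -0.17 ± 0.10 in LP (-0.39 to 0.06; adjusted p = 0.36). The sign in HP turned with quantile normalization (-0.12) and median centring (-0.0103). Its intervals reached 1.19-fold higher in HP and 1.31-fold lower in LP.

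The beta subunits behaved differently from each other. Scn3b, a modulator of the surface level and inactivation of sodium channels, had signals of 574.8, 554.3 and 578.6 after sham surgery in HP, against 686.2, 813.0 and 804.9 after ligation, with no overlap. In LP it had 724.2, 552.8 and 574.7 after sham and 669.0, 615.7 and 615.8 after SNL, with LP sham replicate 1 above and the other sham arrays below the ligated ones. Scn3b rose by 0.43 ± 0.12 in HP (1.35-fold, 1.12 to 1.62; adjusted p = 0.0492), and its LP difference was 0.05 ± 0.12 (adjusted p = 0.87). The HP call lay at the threshold. Leaving out single arrays ended it with an adjusted p of 0.121, 0.125 or 0.111 (sham arrays 1, 2 or 3 of HP), 0.143 or 0.14 (ligated arrays 2 or 3 of HP), 0.0534 or 0.0587 (sham arrays 2 or 3 of LP), or 0.0665, 0.065 or 0.0707 (ligated arrays 1, 2 or 3 of LP), at differences of 0.38 to 0.44. Scn2b, which links channels covalently and acts in cell adhesion, was near the bottom of the scale, with signals between 10.2 and 23.5 and at percentiles 2.51 to 7.40 of the arrays. Its log2 differences were -0.40 ± 0.26 in HP (adjusted p = 0.399) and -0.58 ± 0.26 in LP (adjusted p = 0.196, and 0.0498 without LP SNL replicate 3, at -0.86), and the groups overlapped in both lines.

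Counted together, 6 of the 9 members were called in HP, 4 lower and 2 higher, where 10.8% of all probe sets tested were called, 5.34% lower and 5.42% higher. In LP 5 were called, 4 lower and 1 higher, against 12.1% of all probe sets, 5.76% lower and 6.35% higher. All 3 nociceptor-type genes were called lower in both lines, with a median log2 difference of -1.30 in HP and -1.86 in LP. Of the 4 other alpha subunits 1 was lower and 1 higher in each line, with medians of -0.40 and -0.20. The median over all probe sets was -0.01 in HP and 0.03 in LP. The 4 lower calls were Scn10a, Scn11a, Scn9a and Scn1a in both lines. The groups did not overlap for 4 members lower and 2 higher in HP, where 15.9% and 15.6% of all probe sets had such groups, and for 5 lower and 1 higher in LP, where 13.6% and 15.4% had.

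**Figure D2:**
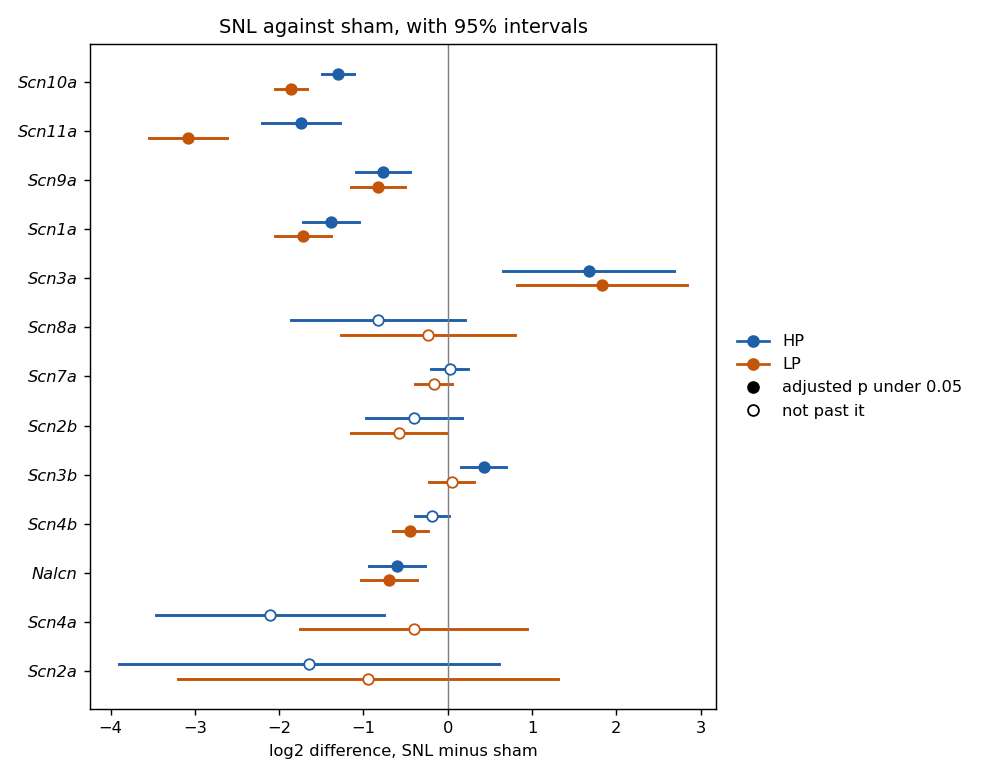
Log2 difference, SNL minus sham (horizontal axis), for the 9 members and 4 further sodium channel genes, in HP (blue) and LP (orange), with 95% intervals from limma and filled points where the adjusted p is under 0.05. The intervals of Scn10a and of Scn11a do not overlap between the lines, while the wide intervals of Scn3a, Scn8a, Scn4a and Scn2a belong to dim probe sets.

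The ratio of a pair of members on the same array shows whether they changed by the same amount, whatever the scaling of that array, and it is given as a description with no test. Scn10a over Scn9a differed after SNL by -0.54 in HP and -1.03 in LP on the log2 scale, with sham and SNL arrays apart in both lines. Scn1a over Scn9a differed by -0.62 and -0.89, again with the arrays apart. Scn10a over Scn1a differed by 0.08 in HP and -0.14 in LP, with overlapping arrays, so Scn10a and Scn1a were not separated by this ratio. Scn11a over Scn10a differed by -0.44 in HP, where HP SNL replicate 1 lay within the sham range, and by -1.23 in LP, where the ligated arrays lay between -1.12 and -1.01 relative to the mean of the 6 sham arrays. Scn3a over Scn9a was higher by 2.44 in HP and 2.65 in LP, with the arrays apart.

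**Figure D3:**
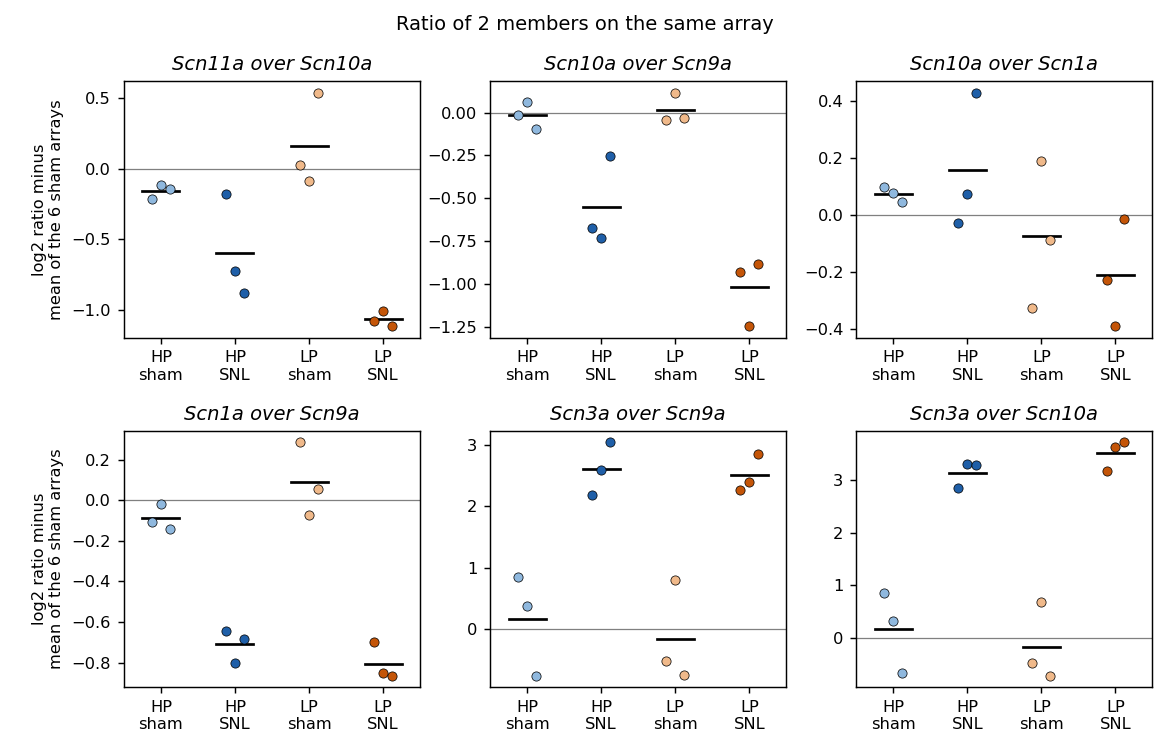
Log2 ratio of 2 members on the same array minus its mean over the 6 sham arrays (vertical axes, log2 units, scaled per panel), by group, with 1 point per array and a bar at the group mean. In LP SNL the Scn11a over Scn10a ratio lies at -1.12 to -1.01 on the 3 arrays, below the other 9, and Scn10a over Scn1a overlaps between sham and SNL within each line.

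The next question was whether the pain lines differed. After sham surgery no member was called between LP and HP, where 0.0441% of all probe sets were (7 by limma). No member had an unadjusted p under 0.05 there, against 1500 of all probe sets (9.45%). The log2 differences of Scn10a, Scn11a, Scn9a and Scn1a were -0.06 ± 0.09, 0.26 ± 0.21, -0.09 ± 0.14 and 0.09 ± 0.15, and the arrays overlapped between lines for all 9 members, where 6.91% of all probe sets had non-overlapping groups lower in LP and 8.47% higher. After SNL 1 member of 9 was called, where 0.145% of all probe sets were. Scn10a was lower in LP, at -0.61 ± 0.09 against HP, with 1132.0 to 1153.4 in HP SNL and 733.1 to 769.6 in LP SNL (adjusted p = 0.0404). Over 23 alternatives this difference lay between -0.66 and -0.59 and its adjusted p between 0.00426 and 0.183. Leaving out single arrays ended the call with 0.0634, 0.0716 or 0.0622 (sham arrays 1, 2 or 3 of HP), 0.0901, 0.109 or 0.078 (ligated arrays 1, 2 or 3 of HP), 0.0597 or 0.0541 (sham arrays 2 or 3 of LP), or 0.114, 0.139 or 0.109 (ligated arrays 1, 2 or 3 of LP). Scn11a was at -1.08 ± 0.21 in LP against HP after SNL, with 458.9 to 731.5 in HP and 253.4 to 268.9 in LP (adjusted p = 0.105). The arrays of the lines did not overlap after SNL for Scn10a, Scn11a, Scn7a and Scn3b, all lower in LP, where 7.31% of all probe sets had such groups lower and 10% higher. At an unadjusted p under 0.05 there were 4 members, the same genes, against 10.6% of all probe sets. Nociceptor markers outside the sodium channels had a median log2 difference of -0.32 in LP against HP after SNL. That of pan-neuronal markers was -0.11 and that of large sensory neuron markers 0.08. None of these markers was called between the lines after SNL.

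**Figure D4:**
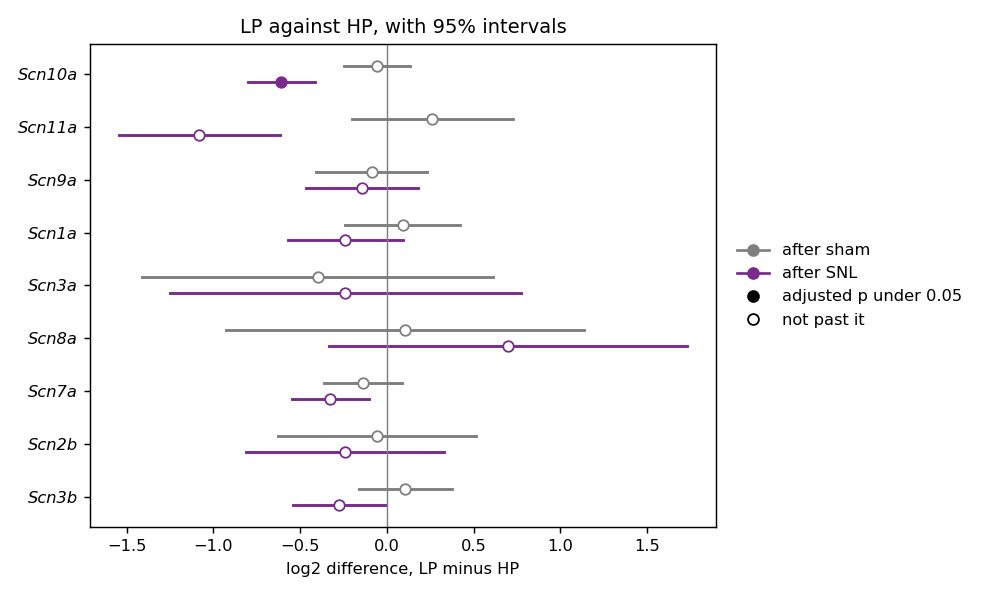
Log2 difference, LP minus HP (horizontal axis), for the 9 members after sham (grey) and after SNL (purple), with 95% intervals from limma and filled points where the adjusted p is under 0.05. The sham differences of all 9 members have intervals that include 0, and after SNL only Scn10a, at -0.61, passed the threshold.

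The size of the ligation response was then compared between lines with the interaction term. Scn11a had a difference -1.34 ± 0.29 further down in LP than in HP (95% interval -2.0 to -0.69; unadjusted p = 0.00107, adjusted p = 0.646), and Scn10a one -0.55 ± 0.12 further down (-0.82 to -0.28; unadjusted p = 0.00109, adjusted p = 0.646). Scn3b had an interaction of -0.38 ± 0.17 (unadjusted p = 0.049, adjusted p = 0.984). These 3 of 9 members were under an unadjusted p of 0.05, as were 747 of all 15866 probe sets (4.71%), and by limma 0 probe sets (0%) passed after adjustment. Scn9a and Scn1a had interactions of -0.06 ± 0.20 and -0.33 ± 0.21 (adjusted p = 0.996 and 0.984). A difference between the lines in the response of these channels was thus not established after adjustment over the whole array. The line comparison after SNL and the interaction share the ligated arrays.

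Further sodium channel genes outside the 9 members were measured by 4 probe sets. Nalcn, the sodium leak channel that sets resting potential, fell in both lines, from 783.7 ± 36.7 to 517.7 ± 15.3 in HP (log2 -0.60 ± 0.15; adjusted p = 0.031) and from 664.9 ± 110.6 to 409.8 ± 69.4 in LP (-0.70 ± 0.15; adjusted p = 0.0136; SD, n = 3). Scn4b, a beta subunit that promotes resurgent current, fell in LP from 3963.5 ± 330.1 to 2915.4 ± 162.1 (-0.44 ± 0.09; adjusted p = 0.0119). Its HP difference was -0.19 ± 0.09 (adjusted p = 0.246). The HP arrays did not overlap either, at 3163.8 to 3319.4 after SNL against 3573.1 to 3771.4 after sham. In HP 15.9% of all probe sets had such groups lower. The interaction of Scn4b was not called (adjusted p = 0.984). Scn4a, the skeletal muscle channel, had 158.9, 194.8 and 151.6 after sham surgery in HP, against 27.8, 35.0 and 56.7 after ligation (-2.11 ± 0.60; adjusted p = 0.0534), and in LP the arrays overlapped (-0.40 ± 0.60; adjusted p = 0.763). Of 11 skeletal muscle markers 3 were called lower in HP and none in LP, against 5.34% and 5.76% of all probe sets. None was listed at 0. Their summed signal was 6327.9 to 7288.7 in HP sham against 4090.8 to 5058.3 in HP SNL, and 5529.5 to 6021.4 in LP sham against 4612.9 to 4985.9 in LP SNL, with no overlap in either line. The sum includes Pvalb, a calcium buffer that is also on the list of large sensory neuron markers, with means of 1870.8 after sham against 1140.9 after SNL for HP, and 2035.1 against 1215.0 for LP (not called, adjusted p = 0.0877 and 0.0891). Without Pvalb in the sum the LP sham and SNL arrays overlapped, while those of HP stayed apart. The median log2 difference of the 11 markers was -0.82 in HP and -0.09 in LP. The part of these markers in the Scn4a values was not tested. Scn2a, a brain channel, lay between 5.1 and 84.8 and was not called.

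Of 33 measured anchors, adhesion partners, cytosolic modulators, kinases and trophic regulators of sodium channels, 6 were called lower in HP and 7 in LP and none higher, with medians of -0.12 and -0.19. Of all probe sets 5.34% were called lower and 5.42% higher in HP, and 5.76% and 6.35% in LP, so a count of 0 higher among 33 is close to the background. In HP those 4 with the smallest p were Cntnap2, Cntnap1, Nrg1 and Sptbn4, and in LP Cntnap1, Cntnap2, Fgf13 and Sptbn4. Cntnap1, the axonal protein of the paranodal junction, fell from 654.9 ± 73.8 to 290.2 ± 28.6 in HP and from 575.6 ± 23.7 to 154.2 ± 31.7 in LP (log2 -1.17 ± 0.15 and -1.91 ± 0.15; adjusted p = 0.00154 and 0.000111). Cntnap2, which clusters potassium channels beside the node, changed by -1.17 ± 0.14 in HP and by -1.05 ± 0.14 in LP (adjusted p = 0.000912 and 0.00111). Sptbn4, the spectrin that holds sodium channels at nodes and initial segments, changed by -1.14 ± 0.18 and -0.87 ± 0.18 (adjusted p = 0.00359 and 0.0111). Fgf13, an intracellular factor that binds the channel's tail, changed by -0.67 ± 0.12 and -0.92 ± 0.12 (adjusted p = 0.00716 and 0.00119), and Nrg1, an axonal growth factor, by -0.82 ± 0.12 and -0.48 ± 0.12 (adjusted p = 0.00288 and 0.0316). Ank3, the ankyrin that tethers the channels, was at 0.04 in HP and -0.18 in LP (adjusted p = 0.923 and 0.53). No partner was called between the lines or in the interaction.

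Levels of cell markers are given beside the falls of the channels. Of all probe sets 5.34% were called lower and 5.42% higher in HP, and 5.76% and 6.35% in LP. Of 12 pan-neuronal markers, 2 were lower and 1 higher in HP and 3 lower and 1 higher in LP, with medians of -0.22 and -0.29 and summed signals of 42201.7 to 44245.2 in HP sham, 36742.3 to 39918.5 in HP SNL, 38824.6 to 42217.3 in LP sham and 32750.1 to 35763.5 in LP SNL. The pan-neuronal markers differed among themselves. At one end of the list Rbfox3, the nuclear protein NeuN, fell in both lines, at log2 differences of -1.05 in HP and -1.26 in LP (adjusted p = 0.0179 and 0.0065). At the other end Nsg1, a protein of neuronal endosomes, rose in both, at 0.75 and 0.57 (adjusted p = 0.00111 and 0.00344). Of 10 nociceptor markers outside the sodium channels 8 were lower in each line, with medians of -0.75 and -1.07 and summed signals of 23122.4 to 24221.2 in HP sham, 18166.1 to 19429.3 in HP SNL, 21836.6 to 23860.4 in LP sham and 14880.4 to 16841.3 in LP SNL. The fall was largest in Acp3, a nociceptor phosphatase (-2.68 and -3.64), while P2rx3, an ATP-gated channel, and Prph, peripherin, were not called (0.03 and 0.08 in HP, -0.15 and -0.04 in LP). Of 11 large sensory neuron markers 4 were lower and 1 higher in each line, with medians of -0.76 and -0.42. These markers were mixed too, with log2 differences from -3.09 to 0.72 in HP and from -1.93 to 1.69 in LP. Cntnap2, counted above among the channel partners, is also on this list.

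**Figure D5:**
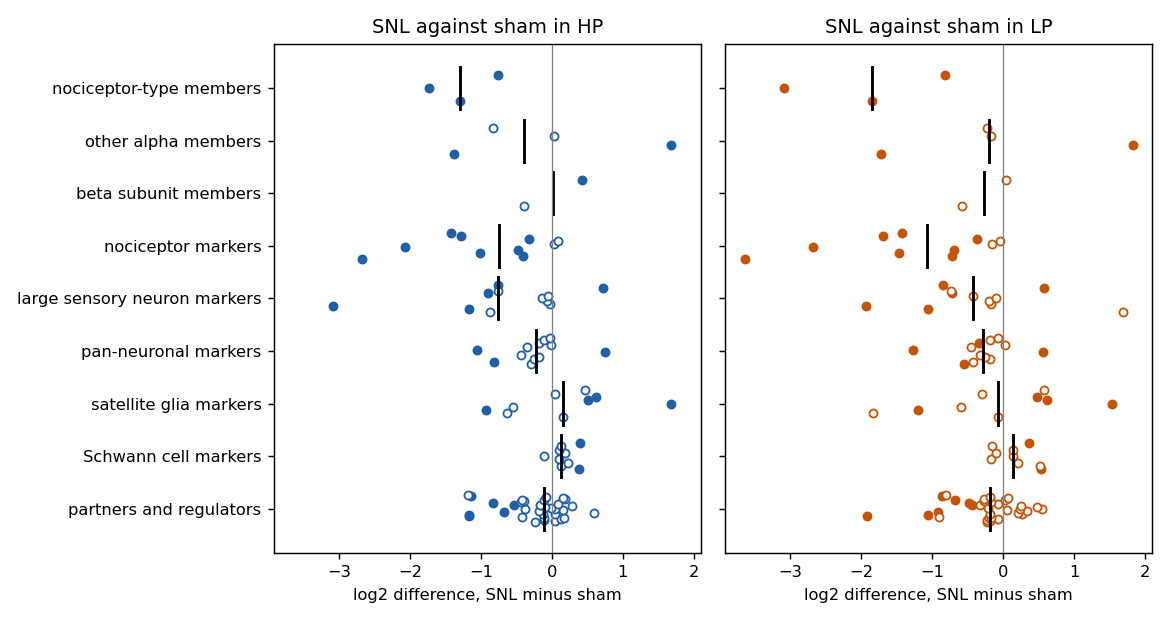
Log2 difference, SNL minus sham (horizontal axes), of each gene of 9 lists (rows) in HP (left) and LP (right), with 1 point per gene, filled where the adjusted p is under 0.05, and a black bar at the median of the list. The nociceptor-type members have medians of -1.30 and -1.86, and the pan-neuronal markers -0.22 and -0.29. Nociceptor markers outside the sodium channels also fell, with medians of -0.75 and -1.07. Large sensory neuron markers have medians of -0.76 and -0.42.

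Markers of cells other than neurons are read against the shares of all probe sets called higher, 5.42% in HP and 6.35% in LP, and lower, 5.34% and 5.76%. Of 9 Schwann cell markers 2 were higher in each line and none lower, with medians of 0.13 and 0.14 and summed signals of 33950.0 to 38465.4 in HP sham, 39189.5 to 42428.1 in HP SNL, 35045.3 to 39990.7 in LP sham and 36721.4 to 37473.3 in LP SNL. Of 9 satellite glia markers 3 were higher and 1 lower in each line, with medians of 0.15 and -0.07 and sums of 15709.3 to 18702.1, 19466.0 to 19797.7, 16539.5 to 18923.5 and 16819.0 to 18618.4 in the same order of groups. The log2 differences of the satellite glia markers ran from -0.93 to 1.67 in HP and from -1.84 to 1.54 in LP. Macrophage markers rose, 9 of 13 in each line with none lower (medians 1.05 and 1.17), and their sums of 8858.8 to 10042.6 in HP sham and 6985.2 to 7998.0 in LP sham reached 17246.0 to 20121.6 in HP SNL and 14700.3 to 17144.1 in LP SNL. Of 11 fibroblast and endothelium markers 4 were higher in HP and 5 in LP, with none lower. No marker of these lists was listed at 0 on any array. The part of this change in cell make-up in the falls of the channels was not tested.

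Genes whose log2 signals followed a called member most closely over the 12 arrays were ranked by Pearson's r among 6736 named probe sets of above-median brightness, as a description, since the arrays share the split into sham and SNL. For Scn10a these were Kcns3, a modulatory potassium channel subunit (r = 0.993), Cpeb3 (0.986) and Cadm1, an adhesion molecule listed under satellite glia (0.984). For Scn11a they were Cd55, a complement inhibitor (0.992), Rgs4, a regulator of G protein signalling (0.983), and Scg2, a secretory granule protein (0.982). For Scn9a they were Patj, Dgkh and Dpysl4 (0.981, 0.980 and 0.975), and for Scn1a Rcan2, Nrsn1 and Avil (0.990, 0.988 and 0.987), Avil being the actin-binding protein advillin of sensory neurons. For the riser Scn3a they were Serping1, the C1 inhibitor (0.951), the transcription factor gene Nfil3 (0.941) and Heg1 (0.935).

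Counting only protein-coding genes in the RefSeq annotation of GRCr8, Scn1a, Scn9a and Scn7a are direct neighbours, and Scn3a lies beside Scn2a on the same chromosome. Of these, Scn1a and Scn9a fell, Scn3a rose and Scn7a was not called. Scn10a and Scn11a lie on another chromosome with 1 annotated protein-coding gene between them, and both fell. Scn2b lies directly beside Scn4b by the same count.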

How the data were processed

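The series holds 12 Affymetrix arrays, deposited as 1 table of linear signal intensity values (0 to 13930.7) by probe set. The authors' deposited intensity values look globally scaled, with a mean of 500.1 on every array after 2% of values were trimmed from each end, while the submitters' processing notes name RMA alone, so the steps are not settled here. Of 191076 values 109 were below 1, so log2(value + 1) was used. Platform symbols were updated through RefSeq's GRCr8 gene table. All 12 arrays entered 1 fit of 4 group means (limma 3.58.1, R 4.3.3; 8 residual and 1.91 prior degrees of freedom), on all 15866 probe sets without the 57 controls, two-sided, with Benjamini-Hochberg adjustment and a threshold of 0.05. The number of arrays limits the precision. Probe sequences were not analysed here, so cross-hybridisation among these related genes was not tested. The fit was tested on simulated data.

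The members, lists and tests were chosen with earlier results of these data known. Named genes were all members, the other sodium channel subunits, up to 4 partner genes with the smallest p in each ligation contrast and any called between lines, marker genes at the extremes where a result rests on them, and the 3 genes most like each member called in both lines. P2rx3, Pvalb and Ank3 were chosen after their values were seen. A list gene stands on its brightest probe set. Alternatives were other normalizations, pseudocounts of 16 and 32, leaving out the dimmest 25%, other variance models and weights, fewer arrays, 1 probe set per gene, a replicate block and the actin ratio. Same-numbered arrays did not deviate together (median correlation -0.04, with 1 of 18 pairs over 0.1), so the numbers were not taken as pairs. Promoter windows come from RefSeq, and their strand was checked by the place of TATAAA.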

Additional observations from a re-analysis of the deposited data

How the results depend on the processing

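The falls of Scn10a, Scn11a and Scn1a after ligation in both lines, and of Scn9a in LP, kept their direction and call under all 23 alternatives. The ligation counts of called members stayed between 4 and 6, and those after sham and for the interaction stayed at 0. For LP against HP after SNL the count was 0 with quantile normalization, with only the arrays compared and with the replicate block, 2 with trended and robust variance, which also called Scn11a, and 0 to 1 when single arrays were left out. The replicate block took Scn3a and Scn3b in HP out of the calls (adjusted p = 0.0623 and 0.0935) and the count there to 4. Quantile normalization (0.0532), array weights (0.0678), only the arrays compared (0.0854) and the actin covariate (0.167) did so for Scn3a in HP, and median centring (0.0647) and only the arrays compared (0.0811) for Scn3b. In LP, array weights (0.0737), only the arrays compared (0.061) and the actin covariate (0.0559) did so for Scn3a, while quantile normalization called Scn2b (0.0432). Over all probe sets, the HP count of 1708 was 1069 with only the arrays compared, 915 with the actin covariate and 981 to 1775 with single arrays left out, and the LP count of 1922 was 834 with only the arrays compared and 1248 to 1837 with single arrays left out. Higher counts came from trended and robust variance, at 2111 in HP and 2320 in LP, and from array weights, at 2104 and 2190. The line counts of 7 after sham and 23 after SNL ran from 0 to 38 and from 1 to 68, and the interaction count of 0 from 0 to 3.

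Values that changed sign were all uncalled. For ligation they were Scn7a in HP (-0.12 with quantile normalization, -0.0103 with median centring, -0.0088 with the actin covariate, -0.0438 to 0.0986 with single arrays left out) and, in LP, Scn3b (-0.0011 with median centring, -0.0273 to 0.1672 with arrays left out) and Scn8a (-0.6167 to 0.0921 with arrays left out). Between lines after sham they were Scn1a and Scn2b with array weights (-0.0093 and 0.0126), Scn8a with the actin covariate (-0.21), and with arrays left out Scn8a (-0.1863 to 0.387), Scn2b (-0.1644 to 0.1208) and Scn3b (-0.014 to 0.1806). For the interaction they were Scn3a with array weights (-0.0147), and with arrays left out Scn3a (-0.2367 to 0.6125), Scn9a (-0.1988 to 0.0289) and Scn2b (-0.4593 to 0.0038). The cause of these changes was not tested. Dim signals limit Scn8a, Scn2b and Scn3a.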
